A study of Mus musculus with 2 samples.

Results

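Ring1B signal was described at the tiled promoters of mouse microRNA genes in embryonic stem (ES) cells. Members were the array's non-control probe groups whose gene name, or one side of a divergent name, was that of a mouse microRNA, with at least 3 probes. The arrays carried 225 such names, and 210 of them had 3 probes or more, out of 16907 tiled genes of any kind with that many. A further name that matches the rule by its letters, Mir16, is an old name of the protein-coding gene Gde1 and was left out. The 15 names with 1 or 2 probes enter no count, and the 9 measured let-7 genes, which the rule does not take, are given once for comparison.

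The study hybridised DNA precipitated with a monoclonal antibody to Ring1B, labelled with Cy5, together with input DNA, labelled with Cy3, to the 2 slides of a promoter tiling set. Both samples are mouse ES cells by their titles, whereas their source names begin with the word Muscle, and no genotype, treatment or cell line is named. The slides shared no probe, so each microRNA was measured once, on 1 slide, with no replicate, no mock precipitation and no dye swap. No test or p-value was possible, and every SD below is over the probes of 1 microRNA, which share a library and neighbouring DNA. The DNA was amplified by ligation-mediated PCR before labelling. Each value is a log2 ratio of precipitated over input DNA, set to 0 at the median probe of its slide, so that 1 stands for a ratio 2 times that of the median probe.

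MicroRNAs are short RNAs cut from hairpins in longer transcripts, which pair through their seed, bases 2 to 8, with messenger RNAs and lower their output. Ring1B is the catalytic core of Polycomb repressive complex 1, which places ubiquitin on histone H2A and is known in ES cells for occupying CpG-rich promoters of silent developmental genes, the Hox clusters first among them. Some microRNA genes lie inside the Hox clusters, and others are known for their expression in neurons, so both groups were set apart from the remaining microRNAs.

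Mature sequences are shown for microRNAs with high signal in their tiled region. Relatives with lower signal that share a seed with them (miR-10b, miR-125b) are added. Several of these genes encode the same or nearly the same product. They are from RefSeq (GRCm38.p6), 5′ to 3′, with the seed in capitals. Of the 210 members, 206 matched a RefSeq microRNA symbol and 186 had a sequence in the table.
miR-196a-5p: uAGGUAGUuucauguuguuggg
miR-196b-5p: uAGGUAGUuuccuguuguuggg
miR-10a-5p: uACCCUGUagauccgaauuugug
miR-10b-5p: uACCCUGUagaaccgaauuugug
miR-9-5p: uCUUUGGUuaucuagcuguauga
miR-129-5p: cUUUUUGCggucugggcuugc
miR-132-3p: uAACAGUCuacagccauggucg
miR-212-3p: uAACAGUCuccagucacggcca
miR-351-5p: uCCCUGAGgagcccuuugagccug
miR-125b-5p: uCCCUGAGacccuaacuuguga

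By seed these 10 sequences form 6 groups. miR-196a and miR-196b share a seed, as do miR-10a and miR-10b, miR-132 and miR-212, and miR-351 and miR-125b, while miR-9 and miR-129 stand alone here. miR-9 is made from 3 gene copies, and miR-196a and miR-129 from 2 each. miR-124, made from 3 copies, is described below by the tiled regions of its genes.

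Across all 210 microRNAs the median was -0.11, against -0.10 over all tiled genes, and single microRNAs ranged from -1.93 to 1.83. At or above 1 stood 9 microRNAs (4.29%), beside 2.01% of all tiled genes. At or below -1 stood 11 (5.24%), beside 1.85% of all tiled genes. The microRNAs thus spread wider than the tiled genes as a whole on both sides, with an SD over members of 0.57 against 0.45. The split of high to low counts moved with the background correction and with the centring: it was 9 to 11 with the main values, 13 to 3 with normexp background correction, 13 to 6 without centring and 13 to 3 with the deposited series table. Over all genes the same settings gave 340 to 313, 453 to 62, 511 to 129 and 439 to 52. MicroRNA regions were also covered unevenly, by 3 to 61 probes with a median of 25. Among the 138 microRNAs with at least 20 probes, 6 (4.35%) stood at or above 1 and 3 (2.17%) at or below -1, beside 2.16% and 1.13% of the tiled genes with as many probes. Among the 35 with 3 to 9 probes, 3 and 5 did, which is 8.57% and 14.3%, beside 3.63% and 11.8% of such genes.

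The 9 microRNAs at or above 1 were mir-196b, mir-196a-2, mir-9-3, mir-124a-1, mir-351, mir-10a, mir-129-2, mir-132 and mir-212. Of these, 3 lie in Hox clusters, 5 belong to the neural list and 1, mir-351, to neither. The Hox-cluster class held 5 measured microRNAs with a median of 1.16 and a range of 0.40 to 1.83. The neural class held 27 with a median of 0.13 and a range of -0.89 to 1.42. The other 178 had a median of -0.15 and ranged from -1.93 to 1.19. Counts at or above 1 were 3 of 5 (60%), 5 of 27 (18.5%) and 1 of 178 (0.562%). Counts at or below -1 were 0, 0 and 11 (6.18%). The ranges of all classes overlapped, and the neural class in particular was not uniformly high, with 16 of its 27 members above 0.

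**Figure D1:**
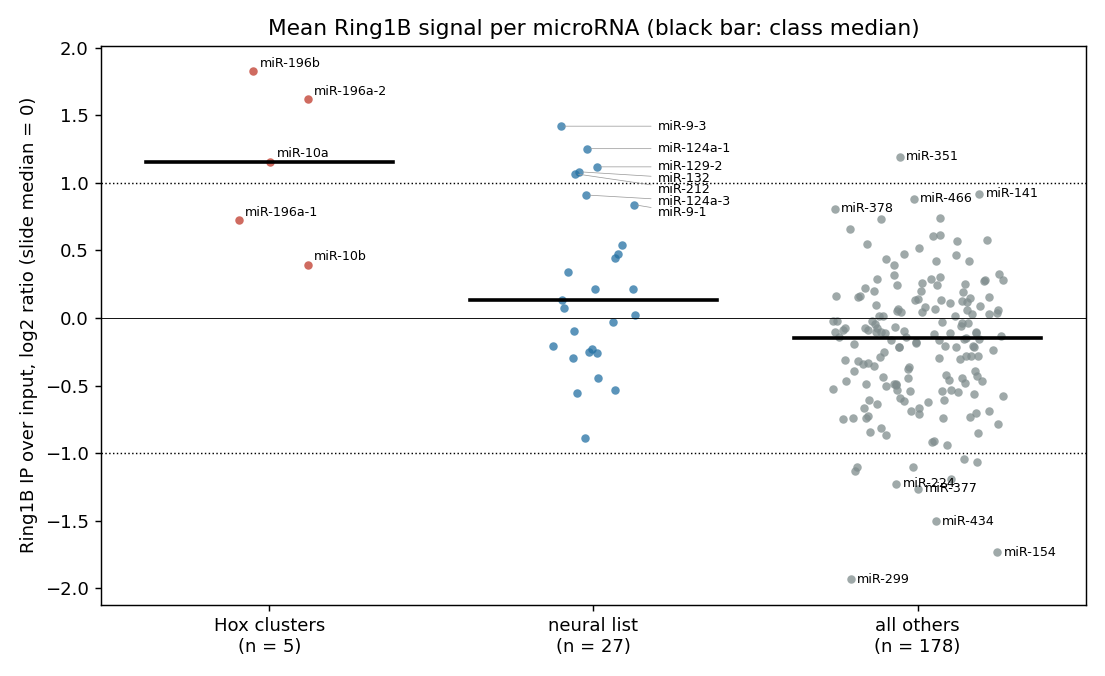
Mean log2 ratio of precipitated over input DNA per microRNA (vertical axis, slide median at 0) for Hox-cluster microRNAs, the neural list and all others, 1 point per microRNA, with the class median as a black bar and dotted lines at 1 and -1. All 5 Hox-cluster points lie above 0, the neural points run from -0.89 to 1.42, and every point at or below -1 is in the third class.

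The Hox-cluster microRNAs sit between Hox genes, the homeodomain factors that set position along the body axis. mir-196b, between Hoxa9 and Hoxa10, had the highest mean of all microRNAs, 1.83 ± 1.08 (SD over 5 probes), at chr6:52193495-52194478 in the array's coordinates (the sources used here do not name their genome build). Its probes ranged from 0.44 to 3.09, with a median processed signal of 9914 for precipitated and 1885 for input DNA. mir-196a-2, between Hoxc9 and Hoxc10, stood at 1.62 ± 1.08 over 9 probes (chr15:102958137-102959596), with no probe below 0.08. Both microRNAs thus had every probe above the median of their slide, but they are covered by few probes.

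mir-10a, upstream of Hoxb4, stood at 1.16 ± 1.40 over 30 probes (chr11:96420901-96426326), with 18 probes at or above 1 and 4 at or below -1. Its probes were uneven along the window. Within 1000 bp of the hairpin start they averaged 2.15 ± 0.58 over 7 probes, and more than 3000 bp upstream 0.71 ± 1.53 over 14. The other copy of the miR-196a product, mir-196a-1 beside Hoxb9, stood at 0.72 ± 1.30 over 28 probes, of which 13 were at or above 1, with its highest running mean of 2.04 at 0.95 kb upstream of the hairpin. mir-10b, within the Hoxd4 locus, had the lowest value of the class, 0.40 ± 1.27 over 23 probes, and here the order along the window was the other way round, with 0.66 ± 1.00 near the hairpin and 1.46 ± 1.26 over 6 probes more than 3000 bp upstream. The 5 microRNAs differ by less than the SD over their probes from their neighbours in this order.

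**Figure D2:**
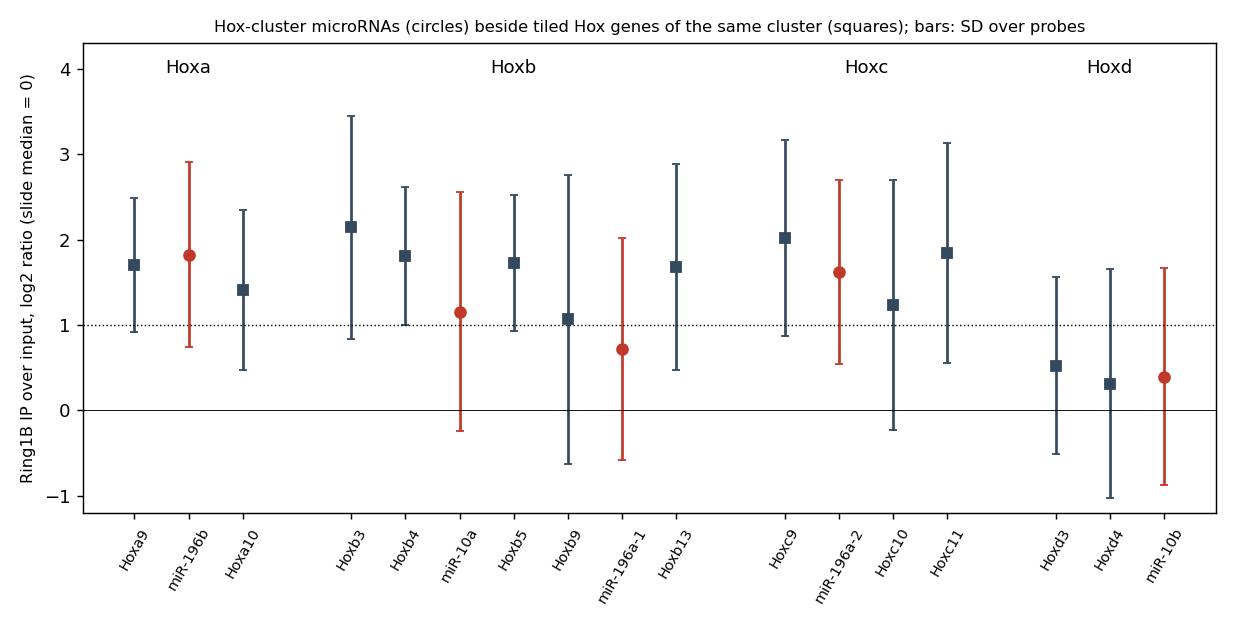
Mean log2 ratio per gene (vertical axis, slide median at 0) for the 5 Hox-cluster microRNAs (circles) and tiled Hox genes of the same cluster (squares), with bars for the SD over probes. mir-10b at 0.40 lies beside Hoxd4 at 0.31 and Hoxd3 at 0.52, and mir-196b at 1.83 beside Hoxa9 at 1.71 and Hoxa10 at 1.41.

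The Hox-cluster microRNAs differed by less than the SD over probes from the protein genes tiled next to them. mir-196b at 1.83 lay between Hoxa9 at 1.71 ± 0.78 (25 probes) and Hoxa10 at 1.41 ± 0.94 (51 probes), whose probe spans began 216 and 192 bp away. mir-196a-2 at 1.62 lay 69 bp from the span of Hoxc9, at 2.02 ± 1.15, and 420 bp from that of Hoxc10, at 1.23 ± 1.46. mir-10a at 1.16 stood below both its neighbours, Hoxb4 at 1.81 ± 0.81, whose span lay 139 bp away, and Hoxb5 at 1.73 ± 0.80, 5749 bp away. mir-196a-1 at 0.72 lay 105 bp from the span of Hoxb9, at 1.07 ± 1.69. The lowest of the class, mir-10b, overlapped Hoxd4, which itself stood at 0.31 ± 1.34. Among all 33 tiled Hox genes the median was 1.41, and 27 stood at or above 1. Runs of probes with a running mean at or above 1 crossed from the microRNAs into these genes: the run over mir-196b was 10132 bp long with 57 probes, although mir-196b itself has 5, and that over mir-10a was 5942 bp with 32 probes. Signal of a microRNA and of its Hox neighbour cannot be told apart at such distances.

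Among the neural microRNAs the highest were copies of miR-9 and miR-124, microRNAs known for neurons and their precursors, and of miR-129. mir-9-3 stood at 1.42 ± 1.08 over 42 probes (chr7:75368196-75376026), with 28 probes at or above 1, none at or below -1, and median signals of 2636 for precipitated and 664 for input DNA. mir-9-1 stood at 0.84 ± 1.74 over 41 probes and mir-9-2 at 0.21 ± 1.55 over 33. The mean of mir-9-1 joins 2 unlike stretches: within 1000 bp of its hairpin start 11 probes averaged 2.69 ± 0.79, the highest value over that stretch among the 174 microRNAs with at least 3 probes there, whereas 13 probes more than 3000 bp upstream averaged -0.02 ± 1.79. At mir-9-3 these values were 1.34 ± 0.90 and 1.41 ± 1.06, a difference smaller than the SD over probes of either stretch. The means of mir-9-3, mir-9-1 and mir-9-2 differ from the next in this order by less than the SD over probes.

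All 3 copies of mir-124a stood above 0. mir-124a-1 stood at 1.25 ± 1.55 over 40 probes (chr14:59446654-59454431), mir-124a-3 at 0.91 ± 1.43 over 39 and mir-124a-2 at 0.54 ± 1.45 over 42. Their highest running means were 2.80 at 1.51 kb, 2.22 at 2.41 kb and 2.71 at 0.31 kb upstream of the hairpin, each picked as the highest of its window. Both the means and these peaks differ between the 3 copies by less than the SD over probes. mir-124a-2 fell to a running mean of -1.05 at 1.05 kb downstream of the hairpin start. At mir-124a-1 the running mean reached -1.15, 2.58 kb downstream.

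**Figure D3:**
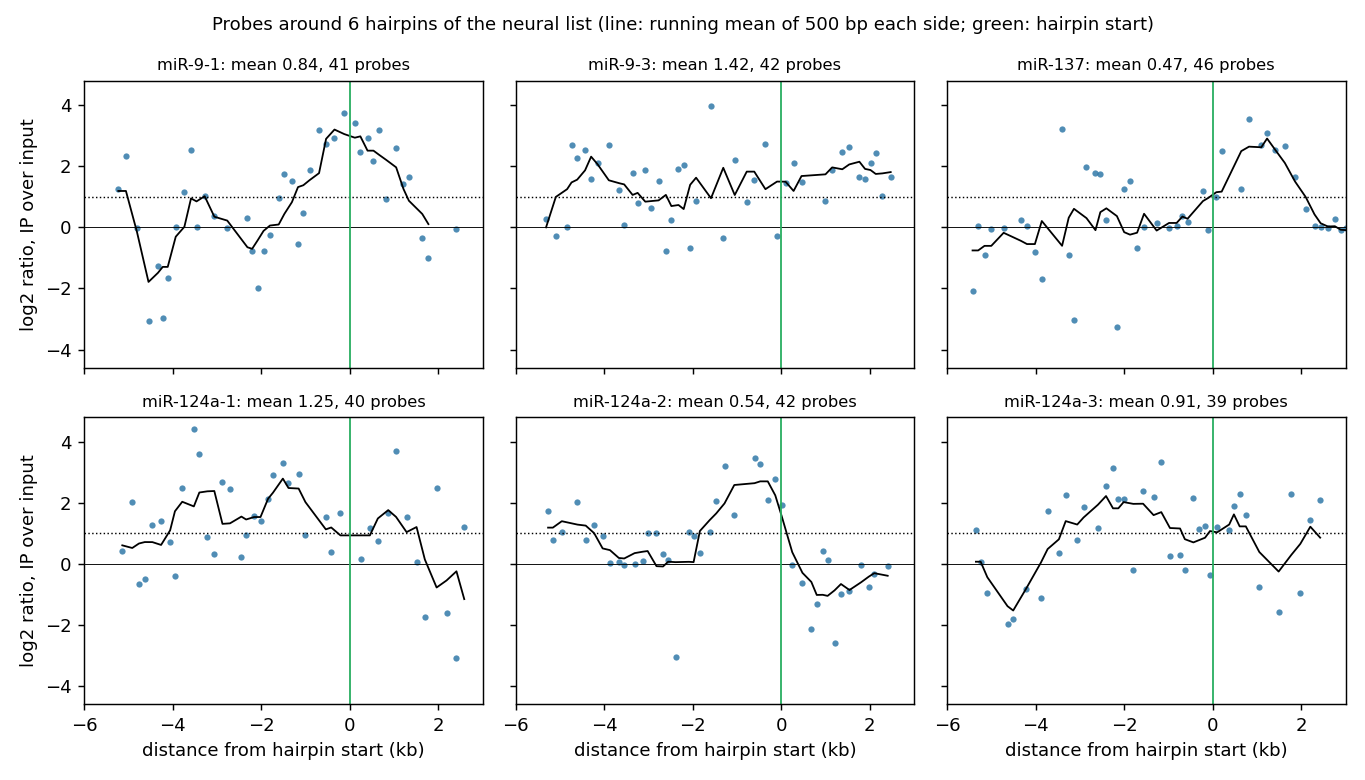
Log2 ratio of each probe (points, vertical axis) against its distance from the hairpin start in kb (horizontal axis, upstream to the left) for mir-9-1, mir-9-3, mir-137 and the 3 mir-124a genes, with the running mean over 500 bp on either side as a black line. mir-9-1 peaks at 3.21 near the hairpin, mir-137 at 2.92 and 1.23 kb downstream of it, and mir-9-3 stays high over most of its window.

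mir-129-2 stood at 1.12 ± 1.22 over 44 probes (chr2:94089850-94097599), with 27 probes at or above 1 and a peak of 2.27 at its hairpin. mir-129-1, whose 5p product is the same, stood at -0.54 ± 1.41 over 38 probes, with its highest running mean at 0.66. With a difference of 1.65 these were the farthest apart of the 24 families compared that have more than 1 measured gene, and the copies of miR-9 followed with 1.21. Families of the neural list that had no copy at 0.5 or above were set apart by value, which itself limits their spread: the 2 copies of miR-138 stood at -0.25 and -0.55, those of miR-218 at 0.03 and -0.23, those of miR-219 at 0.21 and -0.03, those of miR-128 at -0.21 and -0.45, and the 3 miR-7 genes between -0.26 and 0.07. In families outside the neural list with no such copy, the difference ran from 0.20 (miR-135a) to 1.10 (miR-181b).

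mir-132 and mir-212, known for their induction by neuronal activity, lie next to each other on chromosome 11 and share a seed. mir-132 stood at 1.08 ± 1.36 over 6 probes and mir-212 at 1.07 ± 0.99 over 21. Of the probes of mir-212, 20 also lie in the span of Hic1, a tumour suppressor gene encoding a zinc-finger repressor, which stood at 1.19 ± 1.10 over 33 probes. mir-132 lay 229 bp from the span of Hic1 and 460 bp from that of Ovca2, which stood at 0.10 ± 1.76. The highest running mean over mir-212 was 2.38 at 2.24 kb upstream of its hairpin and fell to 0.37 at the hairpin. With 20 of 21 probes shared, the signal of mir-212 and that of Hic1 cannot be told apart. Loess scaling put mir-132 at 0.89 and the median of the probes put mir-212 at 0.95, whereas the other 7 microRNAs at or above 1 stayed there in the 9 other settings of scaling, probe filter and the median of the probes. Taking the lowest running mean of 3 probes instead left only mir-196b and mir-196a-2 at or above 1, beside 0.0828% of all genes. These have 5 and 9 probes, and a lowest value over few runs falls less than one over many, so this setting depends on probe number.

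The remaining neural microRNAs were mixed. mir-137, known for its part in neuronal differentiation, had a mean of 0.47 ± 1.5 over 46 probes that held a narrow peak of 2.92 at 1.23 kb downstream of the hairpin start. The retinal microRNAs mir-211 and mir-204 stood at 0.44 ± 0.99 and -0.29 ± 1.24, and each lies inside a Trpm channel gene. mir-153, inside Ptprn2, stood at 0.13 ± 1.01. The sensory-cell cluster was divided: mir-183 stood at 0.34 ± 1.08 over 31 probes, mir-182 at -0.89 ± 1.37 over 30 probes, of which 15 were at or below -1, and mir-96, with 1 probe, was not counted. mir-182 was the lowest of the neural class.

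Over position, the neural class was higher around the hairpin than at either end of the window. Its probes averaged 0.59 ± 1.25 (25 microRNAs) from 1500 to 500 bp upstream and 0.46 ± 1.65 (26 microRNAs) from 500 bp upstream to 500 bp downstream, against -0.31 ± 1.38 (22 microRNAs) from 5500 to 4500 bp upstream. Downstream, where fewer were tiled, they averaged 0.82 ± 1.58 (13 microRNAs) from 500 to 1500 bp, the highest of the 8 stretches, and -0.37 ± 1.81 (12 microRNAs) from 1500 to 2500 bp. These differences are smaller than the SD over probes. The other microRNAs stood at -0.30 ± 1.40, -0.21 ± 1.34 and -0.03 ± 1.24 in the 3 stretches given first. Counted within 1000 bp of the hairpin start, 7 of 26 neural microRNAs (26.9%), 3 of 5 Hox-cluster microRNAs and 3 of 143 others (2.10%) averaged 1 or more. All classes together gave 13 of 174 (7.47%), beside 8.06% of tiled genes over the same distance from their start. The 3 others were mir-206, mir-26b and mir-193, at 1.14, 1.13 and 1.02, named here after their values were seen. The hairpin position could be read for 179 of the 210 microRNAs.

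Some probes hold a mature microRNA sequence themselves. Such a probe was found for 88 microRNAs by string match to the RefSeq sequences on either strand. It stood at or above 1 for 15 of the 88 (17.0%), while 19.7% of all probes on the arrays did. By class these were 6 of 9 neural microRNAs, 1 of 4 in Hox clusters and 8 of 75 others (10.7%). Each value is 1 probe measured once. The 6 include the single probe of mir-96 and a probe of mir-183, which lies in the same cluster. The median of these probes was 1.10 in the neural class and -0.43 among the others. The probes below are examples of those at or above 1, chosen after their values were seen. Such a probe need not be where the signal was highest: the running mean of mir-137 peaked at 2.92 downstream, and that of mir-9-3 at 2.32, 4.29 kb upstream. The hairpin probes of the other Hox-cluster microRNAs stood at 0.95 (mir-196a-1), 0.11 (mir-196a-2) and -0.08 (mir-10b). The mature sequence, or its reverse complement where stated, is in capitals, and the printed strand is that of the array.
mir-196b, reverse complement of miR-196b-5p, log2 ratio 3.09: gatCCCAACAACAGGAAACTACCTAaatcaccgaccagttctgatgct
mir-129-2, reverse complement of miR-129-2-3p, log2 ratio 1.87: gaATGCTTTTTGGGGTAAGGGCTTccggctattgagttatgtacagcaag
mir-9-3, miR-9-3p, log2 ratio 1.45: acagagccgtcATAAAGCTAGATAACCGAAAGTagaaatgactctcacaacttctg
mir-137, miR-137-3p, log2 ratio 1.00: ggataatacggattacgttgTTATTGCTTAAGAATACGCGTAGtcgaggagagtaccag

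The probe with the highest ratio is shown next for 4 neural microRNAs, as examples with and without CpGs, with CpG dinucleotides in capitals. On all tiled genes, 57.3% of probes hold no CpG and 6.54% hold 3 or more. The mir-9-1 probe lies at chr3:88329222-88329266, with a signal of 30451 for precipitated and 1915 for input DNA, and the mir-129-2 probe at chr2:94092380-94092424, with 6855 and 576. The mir-124a-1 and mir-9-3 probes were dimmer in input, with 5433 and 228 for the first and 3107 and 166 for the second.
mir-124a-1, upstream of the hairpin start, log2 ratio 4.42: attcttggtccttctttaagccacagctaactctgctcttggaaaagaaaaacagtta
mir-9-3, upstream of the hairpin start, log2 ratio 4.0: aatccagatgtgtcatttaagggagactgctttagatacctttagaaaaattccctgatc
mir-9-1, upstream of the hairpin start, log2 ratio 3.76: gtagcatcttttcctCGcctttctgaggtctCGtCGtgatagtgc
mir-129-2, upstream of the hairpin start, log2 ratio 3.34: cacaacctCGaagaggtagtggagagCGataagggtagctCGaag

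The probes of mir-9-1 and mir-129-2 hold 3 CpGs each, and those of mir-124a-1 and mir-9-3, with the higher ratios, hold 0. The highest probe of mir-212 (3.17) holds 0, that of mir-196b (3.09) 1 and that of mir-10a (2.97) 2, so the highest probes were both with and without CpGs. By CpG content of all their probes, the 9 microRNAs at or above 1 had a median of 1.94 CpGs per 100 bases, against 0.86 for the 190 between -1 and 1 and 1.07 for the 11 at or below -1. The neural class split along this measure, at a cut that was not fixed beforehand. Its 9 members with more than 1.5 CpGs per 100 bases had a median log2 ratio of 1.07, with 5 at or above 1. Of these 5, mir-212 lies in the span of Hic1 and mir-132 beside it. The rest of the 9 were mir-124a-3 at 0.91, mir-183 at 0.34, mir-219-1 at 0.21 and mir-219-2 at -0.03. The 18 neural members below the cut had a median of -0.15, with none at or above 1. Among them was mir-9-1, at 0.84 with 1.34 CpGs per 100 bases. Among the other microRNAs, 34 with more than 1.5 CpGs per 100 bases had a median of -0.12 and 144 below that one of -0.15, and 4 of the 34 stood at or below -1. Over all 210 microRNAs, Spearman's rho between CpG content and mean log2 ratio was 0.15 and Pearson's r 0.11, given as a description, since microRNAs of a slide share a library and neighbours share DNA.

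**Figure D4:**
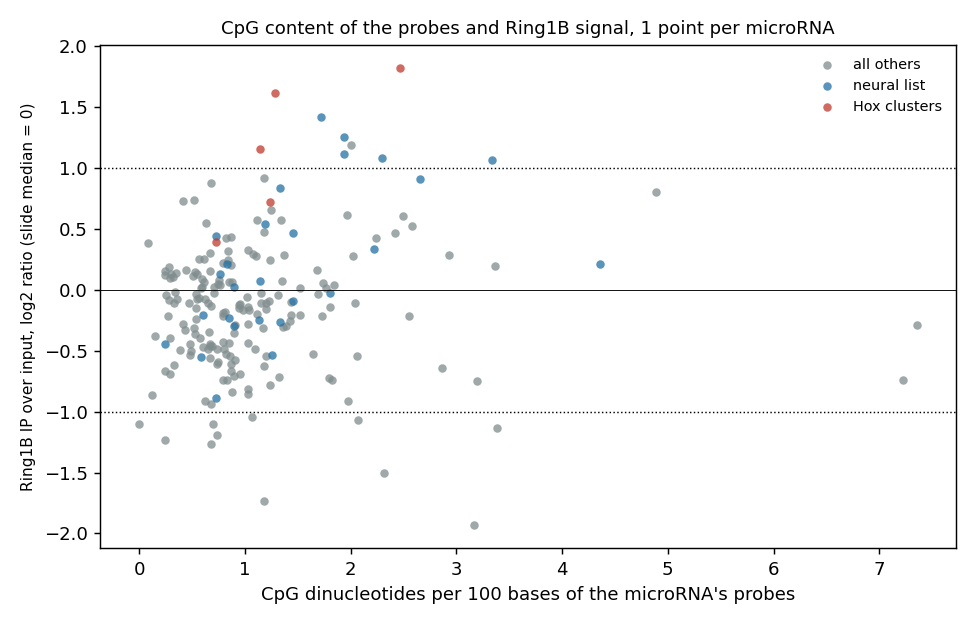
Mean log2 ratio per microRNA (vertical axis, slide median at 0) against CpG dinucleotides per 100 bases of its probes (horizontal axis), coloured by class. The 9 points at or above 1 all lie above 1 CpG per 100 bases, and points of the third class at the same CpG content spread on both sides of 0.

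mir-351 was the only microRNA at or above 1 outside both lists. It stood at 1.19 ± 1.18 over 36 probes (chrX:48145606-48152047), of which 22 were at or above 1, and it held a run of 2324 bp with 13 probes. Its seed is that of the miR-125 family, in which mir-125b-1 stood at -0.64 and mir-125b-2 at -0.11. mir-125a, which shares the seed and was not counted with its 2 probes, had 0.11 and 2.46. The tiled gene closest to it other than a microRNA was Plac1, a placental gene, 52176 bp away and at -0.27. mir-450, whose span begins 78 bp away, stood at 0.32 ± 1.12 over 40 probes.

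Distance to other tiled genes separated the high microRNAs into 2 kinds. The 5 named mir-196b, mir-196a-2, mir-10a, mir-132 and mir-212 lay within 500 bp of the span of a Hox gene or of Hic1 that itself stood above 1. The other 4, mir-9-3, mir-124a-1, mir-129-2 and mir-351, lay 28351 bp or more from the nearest protein gene on the arrays: Polg (0.25), Msra (0.11), Hsd17b12 (-0.17) and Plac1 (-0.27) respectively. mir-124a-2 at 0.54 had as its nearest tiled gene the neural transcription factor gene Bhlhb5, at 1.23 and 250809 bp away. Of all microRNAs more than 20 kb from a tiled gene, 4 (3.12%) stood at or above 1, 3 of them among the 17 of the neural class.

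MicroRNAs that overlap another tiled gene had the lower median. The 34 microRNAs whose probe span overlaps that of another tiled gene had a median of -0.24, with 1 at or above 1, mir-212, and 6 at or below -1 (17.6%). The 176 that overlap none had a median of -0.11, with 8 and 5 (2.84%). The medians differ by less than the SD over members (0.62 and 0.56). Over all tiled genes, 1.85% stood at or below -1 and 2.01% at or above 1. Among tiled genes with 3 to 9 probes 11.8% were as low. Of the 6 low microRNAs, mir-433, mir-130b and mir-224 have 5, 6 and 7 probes. mir-434, mir-328 and mir-34b have 10, 15 and 42. mir-433 and mir-434 both lie in Rtl1, so they are not separate cases. The part of probe number in these counts was not tested. The overlapped gene stood at or above 1 for 2 of the 34, with Hic1 and Igf2. mir-483, inside Igf2, the imprinted insulin-like growth factor gene at 1.53, stood at 0.43 ± 1.33 over 21 probes, with a running mean of 2.72 at 3.80 kb upstream of its hairpin and -0.64 at 0.14 kb upstream. The run over that locus was 6693 bp long with a mean of 2.03. Here the signal lay at the end of the window far from the hairpin, and all 21 probes lie in the span of Igf2. The 1 probe of this window that matched the RefSeq promoter of Igf2 stood at -0.66.

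Runs at or above 1 of at least 2000 bp reached 11 microRNAs (5.24%), beside 3.02% of all tiled genes. Apart from those already given they included mir-449, at 0.61 ± 1.67 over 36 probes, with a run of 3007 bp and a mean of 1.88. The window of mir-449, a microRNA of multiciliated cells, holds the start of its host gene Cdc20b by a string match of 1 probe to the RefSeq promoter, and that probe stood at 2.41. With the sign turned, runs of that length reached 5 (2.38%), beside 0.988%: mir-34b, mir-126, mir-26a-2, mir-324 and mir-365-2.

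The 11 microRNAs at or below -1 were mir-299, mir-154, mir-434, mir-377, mir-224, mir-34b, mir-323, mir-143, mir-130b, mir-433 and mir-328. All belong to the class outside both lists, and 6 of them, mir-299, mir-154, mir-434, mir-377, mir-323 and mir-433, lie in the imprinted cluster of chromosome 12, a run of microRNAs expressed from the maternal allele in embryo and brain. The lowest, mir-299, stood at -1.93 ± 0.81 over 3 probes, with every probe between -2.85 and -1.35. mir-154 stood at -1.74 ± 1.68 over 21 probes, mir-434 at -1.50 ± 1.92 over 10 and mir-377 at -1.26 ± 1.42 over 11. Outside the cluster, mir-34b, a known p53 target with 27 probes inside the span of Btg4, stood at -1.19 ± 1.57 over 42 probes, with 20 at or below -1, and mir-143, a smooth muscle microRNA, at -1.10 ± 1.70 over 28.

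Input signal was highest in the low microRNAs, but it is also the denominator of the ratio by which the groups were set, so the 2 are coupled. The median input signal was 1416 in the 11 low microRNAs, 309 in the 190 between -1 and 1, and 611 in the 9 high ones, while the median precipitated signal was 491, 375 and 1840. Low microRNAs also had few probes, with a median of 10 against 26 and 30. The part of input signal and of probe number in the low values was not tested. Leaving out the probes dim in input raised the number at or below -1 to 30 (and over all genes from 313 to 1264) and normexp correction lowered it to 3. mir-299, mir-154 and mir-434 stayed at or below -1 in those of the 9 other settings of scaling, probe filter and the median of the probes in which they were measured, and the other 8 did not. With the highest running mean of 3 probes, mir-299, which has 3 probes, stayed at -1.93, while mir-154 stood at -0.15 and mir-434 at 0.052.

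The chromosome 12 cluster was followed along its 166 kb, with its limits set by position after the values were seen. Its 22 measured microRNAs had a median of -0.37, 6 stood at or below -1 (27.3%) and none at or above 1. Of its 354 probes, 32.2% stood at or below -1 and 16.9% at or above 1, against 20.6% and 19.7% of all probes on the arrays. Some microRNAs at or below -1 lay next to others above 0. mir-127 at 0.52 ± 1.99 lay between mir-433 at -1.07 ± 2.03 and mir-434 at -1.50. All of them lie within the gene Rtl1, which stood at -0.33. mir-485 and mir-409, at 0.57 ± 1.58 and 0.57 ± 1.00, lay on either side of mir-154 and mir-377. mir-127, mir-433 and mir-485 have only 6, 5 and 5 probes, and the other microRNAs named here have 10 or more. mir-127 and mir-433 differ by less than the SD over their probes. Among cluster members with 10 probes or more, 12 had a median of -0.46, beside -0.11 for 135 such microRNAs outside both lists and the cluster. The 4 members of the imprinted list on other chromosomes stood between -0.36 and 0.43.

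**Figure D5:**
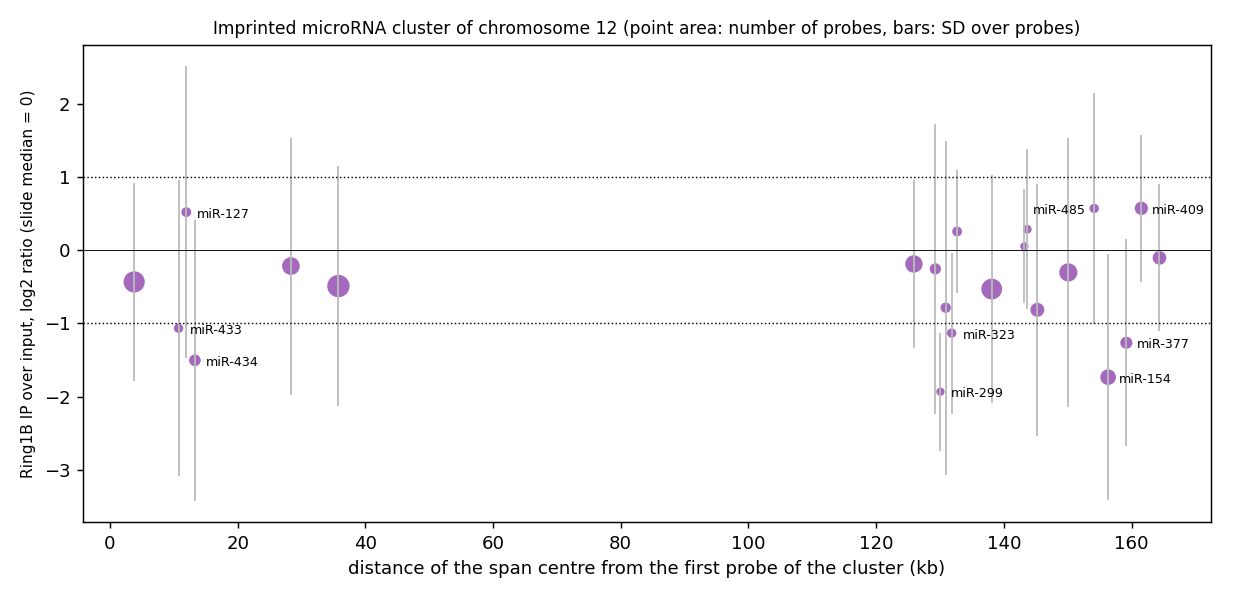
Mean log2 ratio per microRNA (vertical axis, slide median at 0) along the chromosome 12 cluster, by distance of each span's centre from the first probe in kb (horizontal axis), with point area for the number of probes and bars for the SD over probes. The 6 points at or below -1 lie in 3 places of the cluster, next to points above -1.

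Lists of microRNAs of other tissues showed no member at or above 1, beside 2.01% of all tiled genes. With 1 to 18 members each, the lists are too small to be told apart from that share. The 7 muscle and heart microRNAs had a median of -0.16 and were led by mir-206, at 0.74 ± 0.96 over 20 probes, 10 of which were at floor values in both channels. The 9 blood microRNAs had a median of -0.21, with mir-181b-1 farthest from 0 at -0.94 ± 1.17. The 7 epithelial microRNAs had a median of 0.25, and mir-141, at 0.92 ± 1.40 over 5 probes, was closest to the threshold from below. The 6 measured microRNAs of the growth clusters had a median of 0.10, with mir-17 at 0.61 ± 0.92. Of the microRNAs abundant in ES cells, 1 was measured: mir-302, at 0.25 ± 0.85 over 9 probes, of which 7 also lie in the span of its host gene, given on the array as D3Wsu161e and in RefSeq as Larp7. The 18 imprinted microRNAs had a median of -0.28, with mir-154 farthest from 0. The let-7 genes, 9 with a median of -0.29, lay between -0.55 and 0.33.

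Just under the threshold of 1 were mir-141, mir-124a-3, mir-466 (0.88 ± 0.67 over 5 probes, within Sfmbt2), mir-9-1 and mir-378 (0.81 ± 1.35 over 14 probes, within Ppargc1b). Scaling decided on which side mir-124a-3 fell, as normexp put it at 1.25 and loess at 1.21, and mir-9-1 stood at 1.11 with normexp.

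The genes that make and carry microRNAs were also tiled. Of 17 listed, 15 were measured, with a median of -0.17, none at or above 1 and none at or below -1. Over all tiled genes these shares were 2.01% and 1.85%, from which none of 15 cannot be told apart. They ran from 0.21 ± 1.74 at Drosha, the nuclear enzyme that frees the hairpin, to -0.65 ± 1.57 at Ago2, which carries the mature microRNA to its target. Dicer1, which cuts the hairpin, stood at -0.13 ± 1.69, Dgcr8, the partner of Drosha, at -0.50 ± 0.99, and Lin28a, the inhibitor of let-7 processing in ES cells, at -0.16 ± 0.96.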

How the data were processed

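Per the file headers, Agilent Feature Extraction (version 9.1.3.1) produced the deposited scanner files. Their processed signals are intensity values after background subtraction and dye normalization, per the file headers, and dim spots carry a floor value. The deposited log10 ratio of red over green, per the file headers, served only as a check. The deposited series table holds log2 ratios of mean signals without centring, as checked against those files (largest difference 5.0e-05). The value used was the log2 ratio of processed signals (Cy5 over Cy3) less the slide's median probe (0.23 on slide 1, 0.16 on slide 2), averaged over the non-control, non-outlier probes of each array name. Usable probes numbered 237054 and 237168, and 77.1% and 70.6% of the microRNA probes had input signal well above background. The number of arrays limits the precision.

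MicroRNAs, lists and the naming rule (both classes, values at or beyond 1 and -1, the 15 highest and 5 lowest, each list's farthest member, and nearest genes) were chosen with earlier results of these data known. The design foresaw a limma test if the slides shared probes; they shared none, so values are described. Overlap meant probe spans sharing a base. Hairpin starts came from slide 1's annotation; on slide 2 the boundary between upstream and other probes was used, which differed by 41 bp (median) from the annotated hairpin start at 69 microRNAs of slide 1. Runs had at least 3 probes, gaps under 1000 bp and a running mean (500 bp on either side) of at least 1. limma 3.58.1 gave the normexp (offset 50) and loess alternatives. Averaging was tested on simulated data. RefSeq (GRCm38.p6) gave names, hosts and sequences; the sources used here do not name the arrays' build.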

Additional observations from a re-analysis of the deposited data

How the results depend on the processing

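No paired analysis was possible because each slide is a single sample and the result comes from no test. With 1 sample a group and no replicate, limits come from probe number, dim signal and scaling. The Hox-cluster median stayed above the neural and the neural above that of the others in each setting in which all 3 were computed. Besides settings given above, at least 20 probes and pooling of microRNAs within 10 kb were added after the data were seen. The median of the other microRNAs turned to 0.02 without centring. All genes' median moved from -0.10 to 0.02 with normexp, 0.02 with the deposited values, 0.10 without centring and -0.28 without dim probes. Where a count moved, the cause was not tested. With normexp, 3 microRNAs stood at or below -1, 3 outside both lists at or above 1 and 2 overlapping another gene. Loess gave 3 and 2 for the last pair, and the centred deposited values gave 3, 3 and 2 for all of these. Without centring 6 were low and 3 outside both lists high. Without probes dim in input or at the floor in both channels, 30 and 20 were low and 3 outside both lists high. The median of the probes gave 2 high outside both lists and 0 overlapping. Over all genes, the highest running mean of 3 probes put 70.5% at or above 1, and the lowest put 80.1% at or below -1. The counts for these 2 settings that follow are out of 210 microRNAs. With each microRNA's highest running mean of 3 probes, 129 were high and 2 low, with 5 in Hox clusters (median 2.39), 21 neural (1.71), 103 others (1.10), 17 overlapping and 112 not, and of the low microRNAs 5 changed sign, to 0.59 (mir-130b), 1.62 (mir-143), 1.26 (mir-328), 0.52 (mir-34b) and 0.052 (mir-434). With the lowest, 2 were high and 147 low, with medians of -0.90, -1.40 and -1.57, no neural or other microRNA high (0 and 0), 0 overlapping and 2 not, and of the high microRNAs 4 changed sign, to -1.32 (mir-10a), -1.15 (mir-124a-1), -1.97 (mir-129-2) and -0.62 (mir-351). With at least 10 probes 6 were low, 1 Hox-cluster microRNA was high and 5 that overlap none, and with at least 20 these were 3, 1 and 5. Without probes shared with another gene 6 were low and 0 overlapping high. A threshold of 0.8 gave 14 high, 19 low, 4 others and 2 overlapping, and 1.5 gave 2, 3, 0 neural, 0 others, 0 overlapping and 2 not. Counting genes within 2000 bp as overlap gave 5 high with and 4 without. Pooling within 10 kb gave 3 low and 0 others. No microRNA shared a probe with another, so 1 value per locus of shared probes gave the same values.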
